A study of Homo sapiens with 6 samples.

Results

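The HOX genes of the HOXA, HOXB, HOXC and HOXD clusters were described in A375 cells edited with an sgRNA against POLK. Members were the genes in the count table whose symbol is HOX followed by a cluster letter from A to D and a paralog number. This rule used no measured value. It found 38 of the 16934 genes in the table, 11 in HOXA and 9 in each of the other clusters. Of these, 37 had enough counts to be among the 13930 genes tested, and HOXD4 did not.

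HOX genes encode homeodomain transcription factors that lay out position along the head-to-tail axis of the embryo. Within a cluster the genes lie in the order of the body regions they pattern, with low paralog numbers acting toward the head and high numbers toward the tail and the limb ends. Genes with the same number in different clusters are paralogs that arose by duplication of an ancestral cluster. Differentiated cells keep a HOX pattern that reflects where in the body they came from, and Polycomb and Trithorax chromatin complexes maintain its silent and active parts. HOX proteins bind DNA mostly together with the cofactors of the PBX, MEIS and PKNOX families.

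A375 is an established human melanoma line with an activating BRAF mutation. All cells had been through CRISPR-Cas9 editing, with a non-targeting sgRNA in the control group and an sgRNA against POLK, the gene of the translesion DNA polymerase kappa, in the other. Each group had 3 RNA-seq libraries, and the single comparison asks how the POLK sgRNA group differs from the control group. The labels give no time after editing, no further treatment, and no statement that cells were cloned or that the 3 libraries of a group were separate cultures. The p-values therefore set the groups against the spread of these libraries alone, and that spread may be technical. The POLK sgRNA and any other difference between the edited populations cannot be told apart. In RNA from whole cultures, fewer cells of a type and less RNA per cell cannot be told apart.

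Library totals ranged from 42852645 to 56891905 counts. POLK itself was at 23.4, 24.0 and 22.4 CPM (the gene's counts scaled to a common library total) in the control libraries and at 19.2, 17.2 and 18.1 CPM in the POLK sgRNA libraries, 78.0% of control. The 8 melanocyte markers summed to 1150 to 1170 CPM in the control and 1250 to 1300 CPM in the POLK sgRNA libraries, mostly SOX10, and MITF was at 28.2 to 28.3 and 31.7 to 34.2 CPM. The pigment genes MLANA, PMEL, TYRP1, TYR and DCT were under 1 CPM in every library except for DCT in control library 1. DCT had 64 counts there against 2 and 1 in the other control libraries, and TYR had 19 against 0 and 0. TYRP1 was at 0.42 to 0.568 CPM in the control and at 0 to 0.0612 CPM in the POLK sgRNA libraries. Summed fibroblast markers (5 of 5 listed) ranged from 8.74 to 11.1 CPM in the control and from 12.4 to 13.7 CPM in the POLK sgRNA libraries. These markers moved in both directions. LUM (0.423 against 4.5 CPM) and DCN (0.0902 against 1.11 CPM) were higher. DCN passed the filter on low counts only through the POLK sgRNA libraries, so its call could only be toward a higher level. PDGFRA (4.57 against 2.66 CPM) and COL1A2 (0.717 against 0.333 CPM) were lower, and COL1A1 did not pass the test. Summed leukocyte markers (5 of 6 listed) ranged from 17.6 to 18.0 and from 58.1 to 60.3 CPM, nearly all of it CD68 and LYZ, with the defining markers PTPRC and CD3E at under 0.1 CPM in every library. Endothelial markers summed to 1.59 to 2.03 and 2.5 to 2.8 CPM, with VWF and PECAM1 higher and CDH5 lower (0.361 against 0.0343 CPM). CDH5 passed the filter on low counts only through the control libraries, so its call could only be toward a lower level. Keratinocyte markers, mostly KRT10, summed to 82.4 to 86.4 and 99.7 to 104 CPM (3 of 4 listed). The part of these shifts in the HOX differences was not tested.

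Differences passed the test widely across the transcriptome: 64.3% of all genes tested had an adjusted p under 0.05, 32.8% higher and 31.6% lower with the POLK sgRNA. The test was edgeR's quasi-likelihood F test with Benjamini-Hochberg adjustment over the 13930 genes, and the same test stands behind each adjusted p given below. Of the 37 HOX genes tested, 14 (37.8%) were higher, 8 (21.6%) were lower and 15 did not pass. The share called, 59.5%, lay near that of all genes tested, so the count itself does not set the HOX genes apart. Their median log2 fold change was 0.03, against 0.01 for all genes tested. The clusters divided by direction. In HOXC 7 of 9 tested genes were higher and none was lower, in HOXB 1 of 9 was higher and 6 were lower, in HOXA 6 of 11 were higher and 1 was lower, and in HOXD 1 of 8 was lower and none was higher. Most differences were small, since 14 of the 22 called genes had a log2 fold change of under 0.3 in size. The cluster medians were 0.38 for HOXC, 0.18 for HOXA, -0.05 for HOXD and -0.12 for HOXB.

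**Figure D1:**
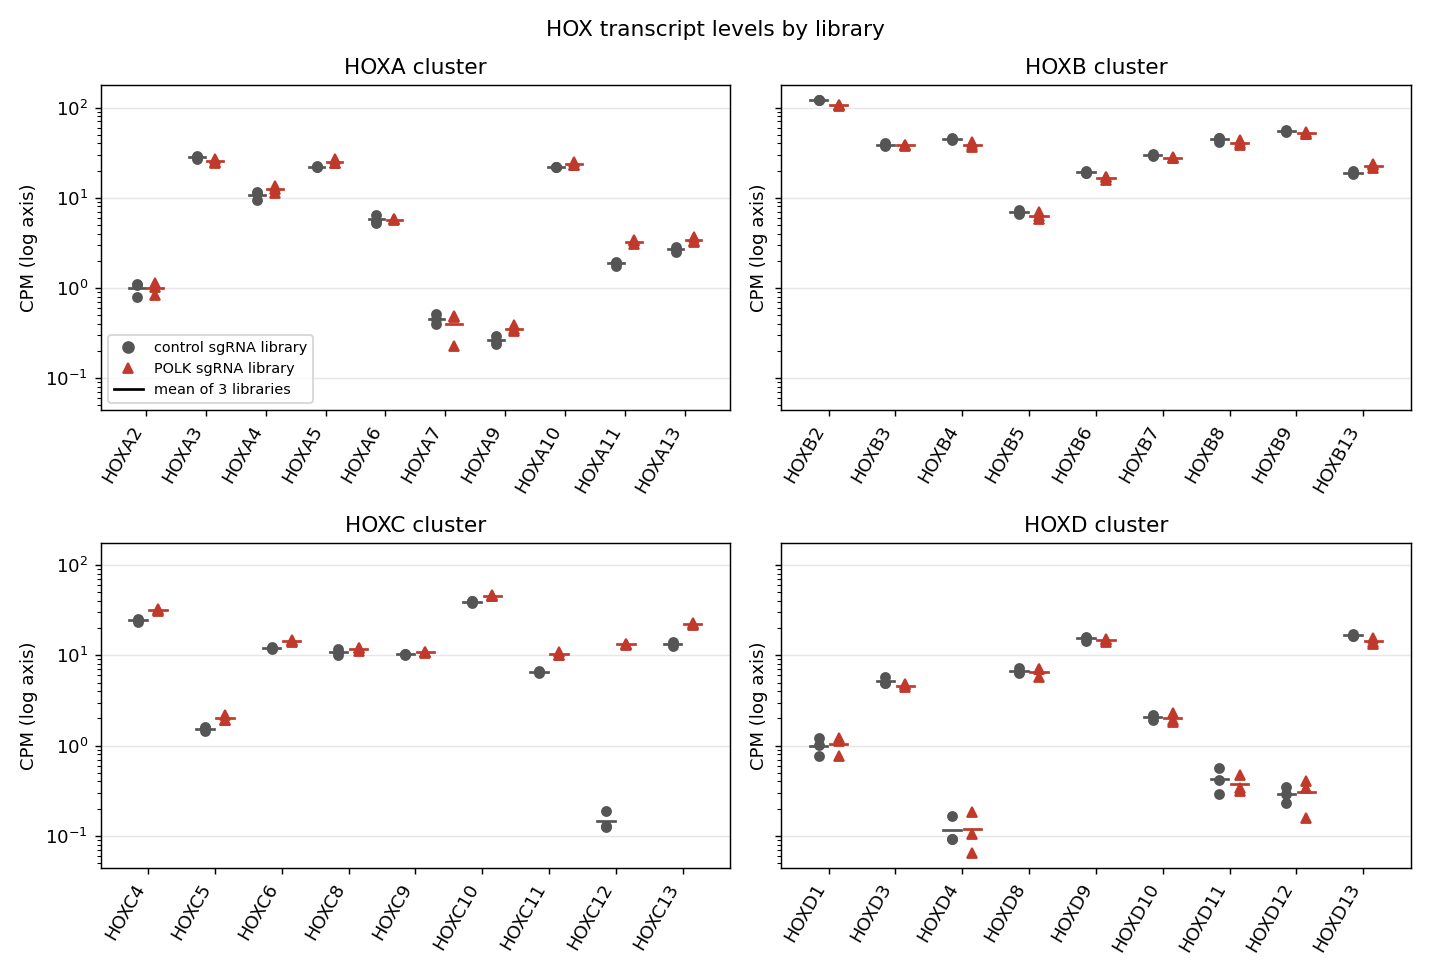
CPM (log axis) of 37 of the 38 HOX genes in each of the 6 libraries, in 4 panels by cluster and ordered by paralog number. Circles are control sgRNA libraries, triangles are POLK sgRNA libraries and short lines are means of 3 libraries. HOXC12 stands apart, at 0.125 to 0.187 CPM in the control and 12.9 to 13.5 CPM in the POLK sgRNA libraries, while most other genes differ by little between the groups.

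The largest difference among the members was in HOXC12, a posterior HOXC gene on chromosome 12. Its homeobox, the stretch that encodes the DNA-binding homeodomain, is shown because it bears on whether reads of a related gene could be counted as HOXC12. The homeobox was compared with those of all other members, using the GENCODE 29 transcripts (GRCh38). The closest was HOXD12, its paralog in the HOXD cluster, with 70.6% identical bases over 180, and next came HOXB9 with 64.4%. Below are HOXC12 (chr12:53956357-53956536, plus strand, exon 2 of 2), HOXD12 (chr2:176100551-176100730, plus strand, exon 2 of 2) and HOXC13, the next gene in the HOXC cluster (chr12:53945041-53945220, plus strand, exon 2 of 2). Capitals mark the bases that differ from HOXD12 in the first sequence and from HOXC12 in the others.
HOXC12: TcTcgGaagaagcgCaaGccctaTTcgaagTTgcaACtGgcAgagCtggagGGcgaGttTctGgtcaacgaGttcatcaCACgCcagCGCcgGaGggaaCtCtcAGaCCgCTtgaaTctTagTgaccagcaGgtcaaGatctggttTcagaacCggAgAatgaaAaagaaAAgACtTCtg
HOXD12: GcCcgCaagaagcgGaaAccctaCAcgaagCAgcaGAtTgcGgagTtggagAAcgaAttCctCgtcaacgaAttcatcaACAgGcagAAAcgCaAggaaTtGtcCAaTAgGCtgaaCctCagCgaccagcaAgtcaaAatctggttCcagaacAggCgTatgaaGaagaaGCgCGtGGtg
HOXC13: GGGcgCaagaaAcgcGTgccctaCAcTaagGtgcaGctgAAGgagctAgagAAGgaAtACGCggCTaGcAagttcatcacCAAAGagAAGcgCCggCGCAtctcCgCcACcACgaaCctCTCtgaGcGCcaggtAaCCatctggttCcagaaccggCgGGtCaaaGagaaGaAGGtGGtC

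HOXC12 and HOXD12 differed at 53 of the 180 bases, and their longest identical run was 8 bases. Over all other members the longest run identical to HOXC12 was 29 bases, with HOXA4. HOXC13 was 60.6% identical to HOXC12, with a longest run of 10 bases. HOXC12 also shared no exonic base with another annotated gene. The homeobox covers 180 of the 3335 exonic bases of HOXC12, and no reads were examined. Whether reads of a related gene were counted as HOXC12 was not tested.

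HOXC12 (chr12:53954834-53958956, plus strand) had 8, 7 and 6 counts in the control libraries and 738, 632 and 655 counts in the POLK sgRNA libraries. That is 0.147 ± 0.0348 CPM against 13.3 ± 0.308 CPM (SD, n = 3), a 90.5-fold ratio of means, and the groups lay far apart. The gene passed the filter on low counts only through the POLK sgRNA libraries, so its call could only be toward a higher level. Its log2 fold change was 6.50 (SE 0.14, edgeR adjusted p = 2.5e-28). A log2 fold change of at least 4 toward a higher level was found for 49 of the genes tested, 0.352%. HOXD12, the closest in sequence, was low in both groups. It was at 0.35, 0.293 and 0.229 CPM in the control and 0.158, 0.342 and 0.408 CPM in the POLK sgRNA libraries, so its groups overlapped and no difference passed the test (log2 fold change 0.03, edgeR adjusted p = 0.95).

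The genes on either side of HOXC12 were also higher. HOXC13, which is known for its role in hair and nail formation, was at 12.8, 14.1 and 13.2 CPM in the control and 23.0, 21.8 and 22.1 CPM in the POLK sgRNA libraries. The groups did not overlap, and the log2 fold change was 0.74 (SE 0.05, edgeR adjusted p = 9e-15). HOXC11 was at 6.37, 6.65 and 6.56 CPM in the control and 10.8, 10.1 and 10.1 CPM in the POLK sgRNA libraries. Its log2 fold change was 0.66 (SE 0.07, edgeR adjusted p = 1.8e-10), again with no overlap. HOXC11 shared no exonic base with another annotated gene, and HOXC13 shared 7.1% with the antisense gene HOXC13-AS. Because the libraries do not mark strand, reads from such shared bases cannot be assigned to 1 gene.

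Toward the head-side end of the cluster the differences were smaller. HOXC10 was at 37.8, 39.6 and 39.9 CPM in the control and 45.4, 45.1 and 47.0 CPM in the POLK sgRNA libraries, a log2 fold change of 0.23 (SE 0.04, edgeR adjusted p = 8.8e-07). HOXC9 was at 10.1 to 10.4 and 10.6 to 11 CPM (log2 fold change 0.07, edgeR adjusted p = 0.3), and HOXC8 at 10.2 to 11.8 and 11.3 to 12.1 CPM (0.11, edgeR adjusted p = 0.12). Neither passed the test. HOXC6 rose from 12.2, 11.9 and 12.3 CPM to 14.5, 14.2 and 14.8 CPM, and HOXC4 from 24.6, 25.2 and 23.7 CPM to 31.1, 32.0 and 32.4 CPM. The log2 fold changes were 0.26 (SE 0.05) and 0.38 (SE 0.04), with edgeR adjusted p = 0.00011 and 5.8e-10, and the groups of both genes did not overlap. HOXC4 shared 21.3% of its exonic bases with HOXC5 and HOXC6, and HOXC6 shared 14.9% with HOXC4 and HOXC5. HOXC5 was at 1.44 to 1.59 CPM in the control and 1.94 to 2.2 CPM in the POLK sgRNA libraries (log2 fold change 0.41, SE 0.14, edgeR adjusted p = 0.01). However, 59.9% of the exonic bases of HOXC5 were shared with other annotation entries, among them another entry also named HOXC5. Along the cluster the rise was thus largest at HOXC11 to HOXC13, passed no threshold at HOXC8 and HOXC9, and was present again at HOXC4 to HOXC6.

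In HOXA the largest difference was in HOXA11 (chr7:27181510-27185223, minus strand), a regulator of limb and reproductive tract patterning. It was at 1.96, 1.87 and 1.77 CPM in the control and 3.06, 3.35 and 3.39 CPM in the POLK sgRNA libraries, and every POLK sgRNA library lay above every control library. The log2 fold change was 0.81 (SE 0.12, edgeR adjusted p = 2.9e-07). Of its exonic bases 30.9% also lie in exons of HOXA11-AS on the opposite strand, so part of its counts is uncertain. HOXA13, the last gene of the cluster, was at 2.87, 2.51 and 2.69 CPM in the control and 3.27, 3.31 and 3.69 CPM in the POLK sgRNA libraries (log2 fold change 0.35, SE 0.11, edgeR adjusted p = 0.0045).

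Several other HOXA genes moved less. HOXA5 (0.18, SE 0.05, edgeR adjusted p = 0.00087) and HOXA10 (0.13, SE 0.04, edgeR adjusted p = 0.014) were higher on the log2 scale with no overlap, at 21.7 to 22.3 against 24.0 to 26.7 CPM and at 21.7 to 21.9 against 22.9 to 25.0 CPM. HOXA10 shared 30.9% and HOXA4 47.3% of exonic bases with other annotated genes. HOXA4 was higher by 0.20 (SE 0.08, edgeR adjusted p = 0.028), although its groups overlapped at 9.41 to 11.6 and 11.3 to 13.6 CPM. HOXA3 was the 1 HOXA gene called lower, at 26.9 to 29.3 and 24.4 to 27.2 CPM (-0.14, SE 0.05, edgeR adjusted p = 0.0075), again with overlapping groups. HOXA2, HOXA6, HOXA7 and HOXA9 did not pass. HOXA9, a gene often active in leukaemias, was at only 0.238 to 0.291 CPM in the control and 0.333 to 0.385 CPM in the POLK sgRNA libraries (0.43, SE 0.31, edgeR adjusted p = 0.23).

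HOXB moved the other way, by small steps. HOXB2 was at 121, 122 and 121 CPM in the control and 108, 107 and 104 CPM in the POLK sgRNA libraries, which did not overlap (log2 fold change -0.18, SE 0.03, edgeR adjusted p = 1.6e-07). HOXB4, known for its role in blood stem cells, was at 44.9, 46.2 and 44.0 CPM against 36.8, 38.7 and 41.2 CPM (-0.21, SE 0.04, edgeR adjusted p = 1.1e-05). HOXB6 was at 20, 19.0 and 18.9 CPM against 15.6, 16.8 and 17.1 CPM (-0.23, SE 0.05, edgeR adjusted p = 0.00018), and it shared 37.7% of its exonic bases with other annotated genes. HOXB7, HOXB8 and HOXB9 were lower, with log2 fold changes of -0.10, -0.12 and -0.08 and edgeR adjusted p between 0.019 and 0.028. The groups of HOXB8 overlapped, at 41.6 to 46.1 CPM in the control and 38.5 to 43.4 CPM in the POLK sgRNA libraries. HOXB3 (-0.03, edgeR adjusted p = 0.55) and HOXB5 (-0.12, edgeR adjusted p = 0.18) did not pass. The 6 genes that fell thus did so by 0.08 to 0.23 on the log2 scale.

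HOXB13, a posterior gene best known from the prostate, lies at a distance from the rest of its cluster (chr17:48724763-48729178, minus strand) and was the only HOXB gene called higher. It was at 18.4, 19.7 and 18.9 CPM in the control and 21.5, 23.4 and 23.1 CPM in the POLK sgRNA libraries, with no overlap (log2 fold change 0.25, SE 0.05, edgeR adjusted p = 2.5e-05). PRAC2, which lies between HOXB9 and HOXB13, had 40, 62 and 54 counts in the control and 22, 12 and 16 counts in the POLK sgRNA libraries. It fell on the log2 scale by 1.71 (SE 0.23, edgeR adjusted p = 8.9e-08), while HOXB9 and HOXB13 on its sides changed by -0.08 and 0.25. PRAC1, next to it, had 5, 2 and 2 counts against 0, 1 and 1 and was not tested.

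In HOXD a single gene passed the test. HOXD13, which patterns the digits, was at 17.4, 16.4 and 16.4 CPM in the control and 14.2, 13.4 and 15.4 CPM in the POLK sgRNA libraries. The groups did not overlap, and the log2 fold change was -0.22 (SE 0.05, edgeR adjusted p = 0.00066). HOXD9 was at 14.4 to 16 and 14.2 to 15 CPM (-0.06, edgeR adjusted p = 0.3). HOXD3 was at 4.96 to 5.69 and 4.43 to 4.8 CPM, which did not overlap but did not pass (-0.16, SE 0.09, edgeR adjusted p = 0.099), and 90.2% of its exonic bases lie in exons of other annotated genes. HOXD1, HOXD8, HOXD10 and HOXD11 had log2 fold changes of 0.00, -0.03, -0.04 and -0.15, with edgeR adjusted p between 0.68 and 0.99. HOXD4 had 4, 5 and 8 counts against 6, 3 and 9 counts.

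The posterior paralogs HOXA13 and HOXD13 therefore moved in opposite directions, and their start regions are shown side by side with that of HOXA11. The sequences are the 250 bases before the transcription start in RefSeq (GRCh38.p14), in which 19 of the 38 members had an entry. HOXA11 is at chr7:27185233-27185482 and HOXA13 at chr7:27200092-27200341, both on the minus strand, and HOXD13 is at chr2:176092471-176092720 on the plus strand. Capitals mark matches on either strand to the CCAAT box, to the TATA box letters TATAAA, to the E-box letters CACGTG, to the composite PBX and HOX motif TGATNNAT or to the posterior HOX motif TTTATGG.
HOXA11: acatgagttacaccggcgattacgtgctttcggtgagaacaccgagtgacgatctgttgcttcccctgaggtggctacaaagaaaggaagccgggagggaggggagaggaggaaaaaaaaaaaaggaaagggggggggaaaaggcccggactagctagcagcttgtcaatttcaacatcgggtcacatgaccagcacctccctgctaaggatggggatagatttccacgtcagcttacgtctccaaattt
HOXA13: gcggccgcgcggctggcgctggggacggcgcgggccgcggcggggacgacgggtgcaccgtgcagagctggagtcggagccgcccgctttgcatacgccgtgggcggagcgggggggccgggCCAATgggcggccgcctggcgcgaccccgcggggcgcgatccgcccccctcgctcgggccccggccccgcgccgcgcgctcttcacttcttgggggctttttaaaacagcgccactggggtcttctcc
HOXD13: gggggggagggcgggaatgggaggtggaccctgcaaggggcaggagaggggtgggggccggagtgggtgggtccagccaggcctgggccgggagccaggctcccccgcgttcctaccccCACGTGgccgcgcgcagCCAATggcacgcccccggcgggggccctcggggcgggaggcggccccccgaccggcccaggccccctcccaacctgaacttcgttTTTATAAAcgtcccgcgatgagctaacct

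HOXA13 held 1 CCAAT match. HOXD13 held 1 CCAAT match, 1 CACGTG match and 2 TATAAA matches that overlap on opposite strands, and HOXA11 held none of the 5 motifs. The 19 members with an entry had 26 promoters in the table, since HOXA3 has 7 start sites there and HOXA10 has 2. No HOXB gene had an entry, and in HOXC only HOXC4 and HOXC5 did. The member shares below therefore describe mainly HOXA and HOXD promoters. CCAAT was found in 17 of the 26 (65.4%) and in 32% of the 35116 promoters of the same length in the table. TATAAA was found in 5 of the 26 (19.2%) and in 10.7% of all, and CACGTG in 8 (30.8%) and 6.34%. TGATNNAT was found in 2 (7.69%) and 6.47%, and TTTATGG in 1 (3.85%) and 2.3%. HOXA13 had 40 CG dinucleotides in this window, HOXD13 21 and HOXA11 11, against a median of 11 over all promoters. A match is a description of the letters and says nothing of binding.

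By paralog number, 8 of the 16 tested genes of groups 9 to 13 were higher and 2 were lower, and their median log2 fold change was 0.18. Of the 14 tested genes of groups 4 to 8, 5 were higher and 4 lower (median -0.02), and of the 7 of groups 1 to 3, 1 was higher and 2 were lower (median -0.03). The shares called were 62.5%, 64.3% and 42.9% in the same order, beside 64.3% of all genes tested. The posterior genes did not move as 1 set, since HOXB9 and HOXD13 fell while HOXA10, HOXA11, HOXA13, HOXB13 and HOXC10 to HOXC13 rose. Paralog groups were likewise mixed: HOXA13, HOXB13 and HOXC13 were higher and HOXD13 was lower, and HOXA4 and HOXC4 were higher while HOXB4 was lower.

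Summed over a cluster, the HOXC genes were at 118 ± 2.49 CPM in the control and 163 ± 1.11 CPM in the POLK sgRNA libraries (SD, n = 3), 137% of control. Without HOXC12 the sums were 118 ± 2.51 and 149 ± 1.22 CPM, 126%. HOXA summed to 101 ± 1.77 and 110 ± 2.02 CPM (109%), and HOXB to 380 ± 3.84 and 350 ± 4.95 CPM (92.1%). HOXD summed to 47.9 ± 2.0 and 44.0 ± 2.3 CPM (92.0%). The groups did not overlap for HOXA, HOXB and HOXC, and overlapped for HOXD. An exact permutation of 3 against 3 libraries cannot go below p = 0.10, so no test is given for these sums.

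To set the members beside their surroundings, the 10 nearest tested genes on each side of each cluster were read from the same fit. Of these 80 genes 80.0% were called, beside 64.3% of all genes tested. Their reach was unequal, at 2398.8 and 2720.0 kb on the 2 sides of HOXA and 1844.2 and 2240.5 kb for HOXD. It was 709.4 and 674.9 kb for HOXB and 631.6 and 519.4 kb for HOXC. Around HOXC all 20 flanking genes were higher, with log2 fold changes from 0.13 to 2.76 and a median of 0.57. The gene at 2.76, PPP1R1A, had 2, 1 and 3 counts in the control and 20, 12 and 13 in the POLK sgRNA libraries. It passed the filter only through the latter, so its call could only be toward a higher level. PDE1B (1.13) was at 0.14, 0.22 and 0.208 CPM in the control, near the filter at 0.206 CPM. The HOXC members lay lower, at a median of 0.38, and HOXC11, HOXC12 and HOXC13 were the 3 of 9 above the flanking median. The nearest tested neighbours were SMUG1, a uracil-DNA glycosylase gene, at 30.8 against 57.8 CPM (log2 fold change 0.91), and CALCOCO1, at 26.7 against 36.9 CPM (0.47). Higher levels were thus found in the genes around the HOXC cluster as well as in 7 of its 9 genes. HOXC12, at 6.50, was the only HOXC gene above the highest of the 20 flanking genes. Like PPP1R1A, HOXC12 passed the filter only through the POLK sgRNA libraries. The part of the shift of the flanking genes in the HOXC values was not tested.

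Around the other clusters the flanking genes were mixed. Around HOXA 8 were higher and 7 lower (median 0.00), around HOXB 10 were higher and 4 lower (0.11), and around HOXD 9 were higher and 6 lower (0.04). HOXA members exceeded their flanking median in 8 of 11 cases, and HOXA11 exceeded the highest of the 20 flanking genes, which was at 0.60. The 8 include HOXA2 (0.03, SE 0.19) and HOXA9 (0.43, SE 0.31), which did not pass the test. In HOXB only HOXB13 exceeded the flanking median, and in HOXD none of the 8 tested genes did. HOXD12, at 0.03 with an SE of 0.35, and HOXD1, at 0.00 with an SE of 0.20, were within their SE of the HOXD flanking median. The nearest neighbours of HOXB were SNX11 (0.17) and TTLL6, at 0.381 against 1.75 CPM (2.22), while those of HOXA were SKAP2, at 32.9 against 50 CPM (0.60), and HIBADH (0.30). LNPK (-0.18) and MTX2 (-0.02) flank HOXD.

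**Figure D2:**
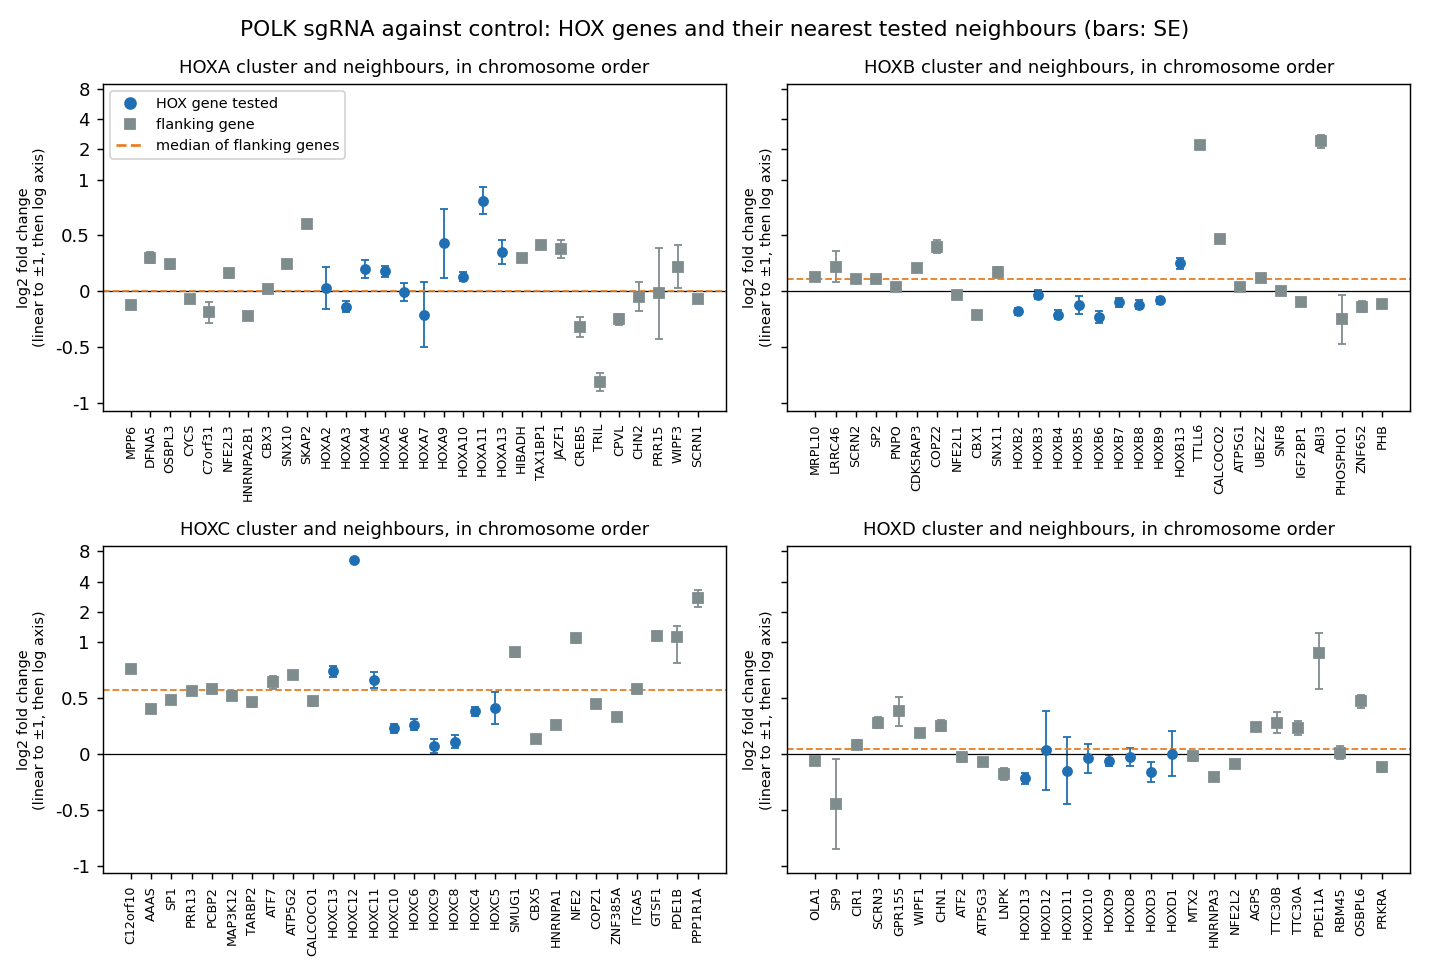
Log2 fold change of POLK sgRNA over control (linear to ±1, then a log axis) for 36 of the 37 tested HOX genes (circles) and the 10 nearest tested genes on each side (squares), in chromosome order, with SE bars. The dashed line is the median of the flanking genes, which is 0.57 around HOXC and between 0.00 and 0.11 around the other clusters.

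Levels of different genes were compared per kb of exon, since longer transcripts give more counts. In the control libraries HOXB2 was the highest, at 77.6 ± 0.591 CPM per kb (SD, n = 3). HOXB8 (24.3 ± 1.35), HOXB7 (21.8 ± 0.656), HOXB9 (21.4 ± 0.493) and HOXC10 (20.2 ± 0.586 CPM per kb) followed, and of these HOXB7 and HOXB9 lay within their spread of each other. The HOXB genes held 59.8% of the per-length sum over all members. HOXC12 was the lowest of all members in the control, at 0.044 ± 0.0104 CPM per kb, and reached 3.98 ± 0.0925 CPM per kb in the POLK sgRNA libraries, above HOXC11 at 3.16 and below HOXC13 at 9.2 CPM per kb. HOXD4, HOXA9 and HOXD12 were also low in the control, at 0.08, 0.127 and 0.216 CPM per kb. In CPM, 30 members were at a mean of at least 1 in both groups, and 8 were under 1 in at least 1 group. The spread within a group had a median of 4.16% of the mean for the former and 22.0% for the latter, so small differences could be seen only in the former.

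**Figure D3:**
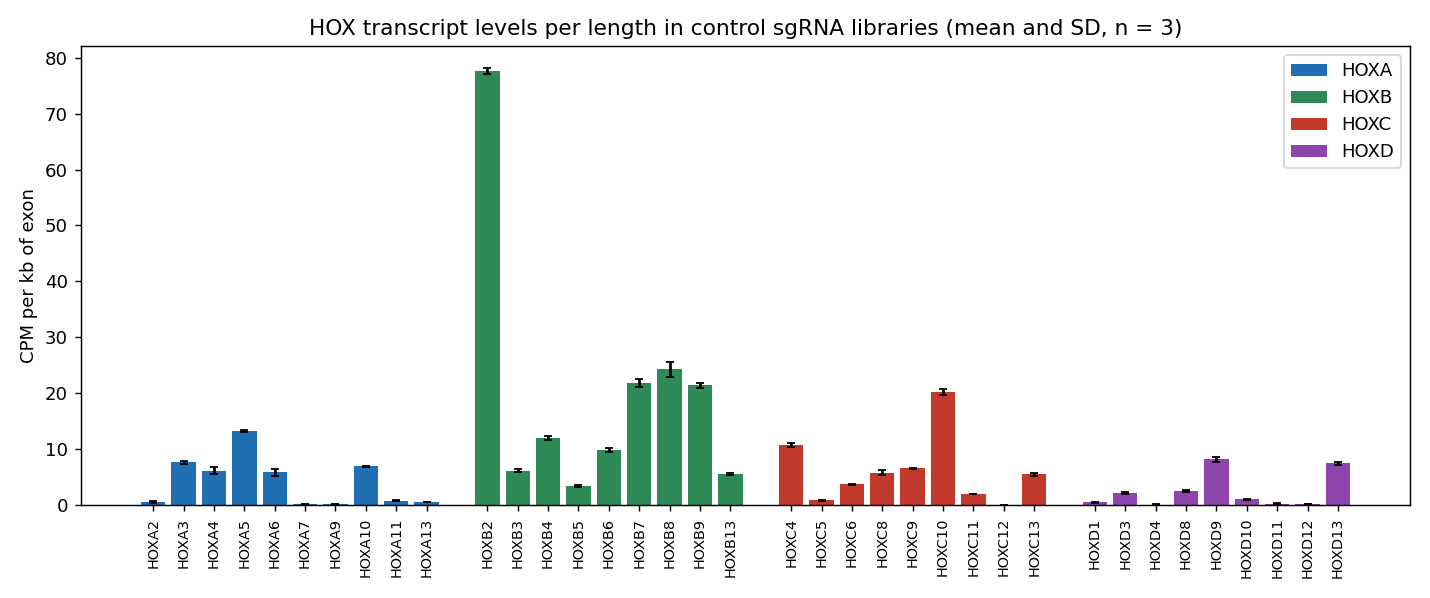
Level of 37 of the 38 HOX genes per kb of exon in the 3 control sgRNA libraries (bars, mean; error bars, SD), in CPM per kb and grouped by cluster. HOXB2 stands at 77.6 CPM per kb, all other genes at or below 24.3, and HOXC12 near 0.

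Of the 13 HOX cofactor genes, which encode the partners that bind DNA or act with HOX proteins, 2 were higher, 7 were lower and 4 did not pass. This list and the chromatin lists below were chosen with earlier results of these data known. Their median log2 fold change was -0.12, against 0.01 for all genes tested. The share called, 69.2%, stands beside 64.3% of all genes tested. By direction, 53.8% were lower and 15.4% were higher, beside 31.6% and 32.8% of all genes tested. PBX2 (0.05, edgeR adjusted p = 0.13), PBX3 (-0.01, edgeR adjusted p = 0.87) and PBX4 (0.27, edgeR adjusted p = 0.064) did not pass, although PBX2 did without POLK sgRNA library 1 (edgeR adjusted p = 0.028) and PBX4 without control library 1 (edgeR adjusted p = 0.035). The MEIS genes, which encode partners of PBX and HOX proteins, were lower: MEIS3 at 16.8 against 10.9 CPM (-0.62, edgeR adjusted p = 4.2e-12), MEIS1 at 10.0 against 7.52 CPM (-0.41, edgeR adjusted p = 3.8e-06) and MEIS2 at 46.3 against 42.6 CPM (-0.12, edgeR adjusted p = 0.0023). PKNOX2, of the same homeobox class, was higher, at 11.3 against 15.6 CPM (0.47, edgeR adjusted p = 3.6e-09). CREBBP, a coactivator gene, was lower at 123 against 100.0 CPM (-0.29, edgeR adjusted p = 5.6e-11), as was HMGB1, which encodes a DNA-bending protein, at 808 against 691 CPM (-0.23, edgeR adjusted p = 2.4e-11).

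Of 33 Polycomb genes, whose products keep HOX genes silent, 12 were higher and 11 lower, and the median was 0.02 on the log2 scale. ASXL1, which acts in the removal of ubiquitin from histone H2A, was higher at 96.3 against 138 CPM (0.52, edgeR adjusted p = 1.3e-18), KDM2B, which brings a Polycomb complex to CpG-rich DNA, was higher at 48.1 against 64.9 CPM (0.43, edgeR adjusted p = 5.9e-14), and RBBP4, a histone-binding subunit of the PRC2 complex, was lower at 246 against 178 CPM (-0.47, edgeR adjusted p = 2.5e-18). CBX7, a reader of the PRC2 mark, was higher at 7.11 against 12.3 CPM (0.79, edgeR adjusted p = 7.1e-13). EZH2, the catalytic subunit of PRC2, did not pass, at 78.5 against 76.9 CPM (-0.03, edgeR adjusted p = 0.38). Of 21 genes of Trithorax and other activators, 5 were higher and 7 lower (median 0.03). CTCF, which encodes a DNA-binding protein at boundaries within HOX clusters, was lower at 135 against 110 CPM (-0.29, edgeR adjusted p = 1.1e-11). KMT2A, the histone methyltransferase gene best known for keeping HOX genes active, was at 121, 119 and 123 CPM against 132, 141 and 112 CPM, with overlapping groups (0.09, edgeR adjusted p = 0.47). Without POLK sgRNA library 3, KMT2A was higher by 0.17 on the log2 scale (edgeR adjusted p = 6.4e-07). ASH2L (0.15) and RAD21 (0.10) were higher and DPY30 (-0.15) was lower, with edgeR adjusted p between 1.6e-05 and 0.00012. Over both chromatin lists 64.8% were called, near the 64.3% of all genes tested.

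**Figure D4:**
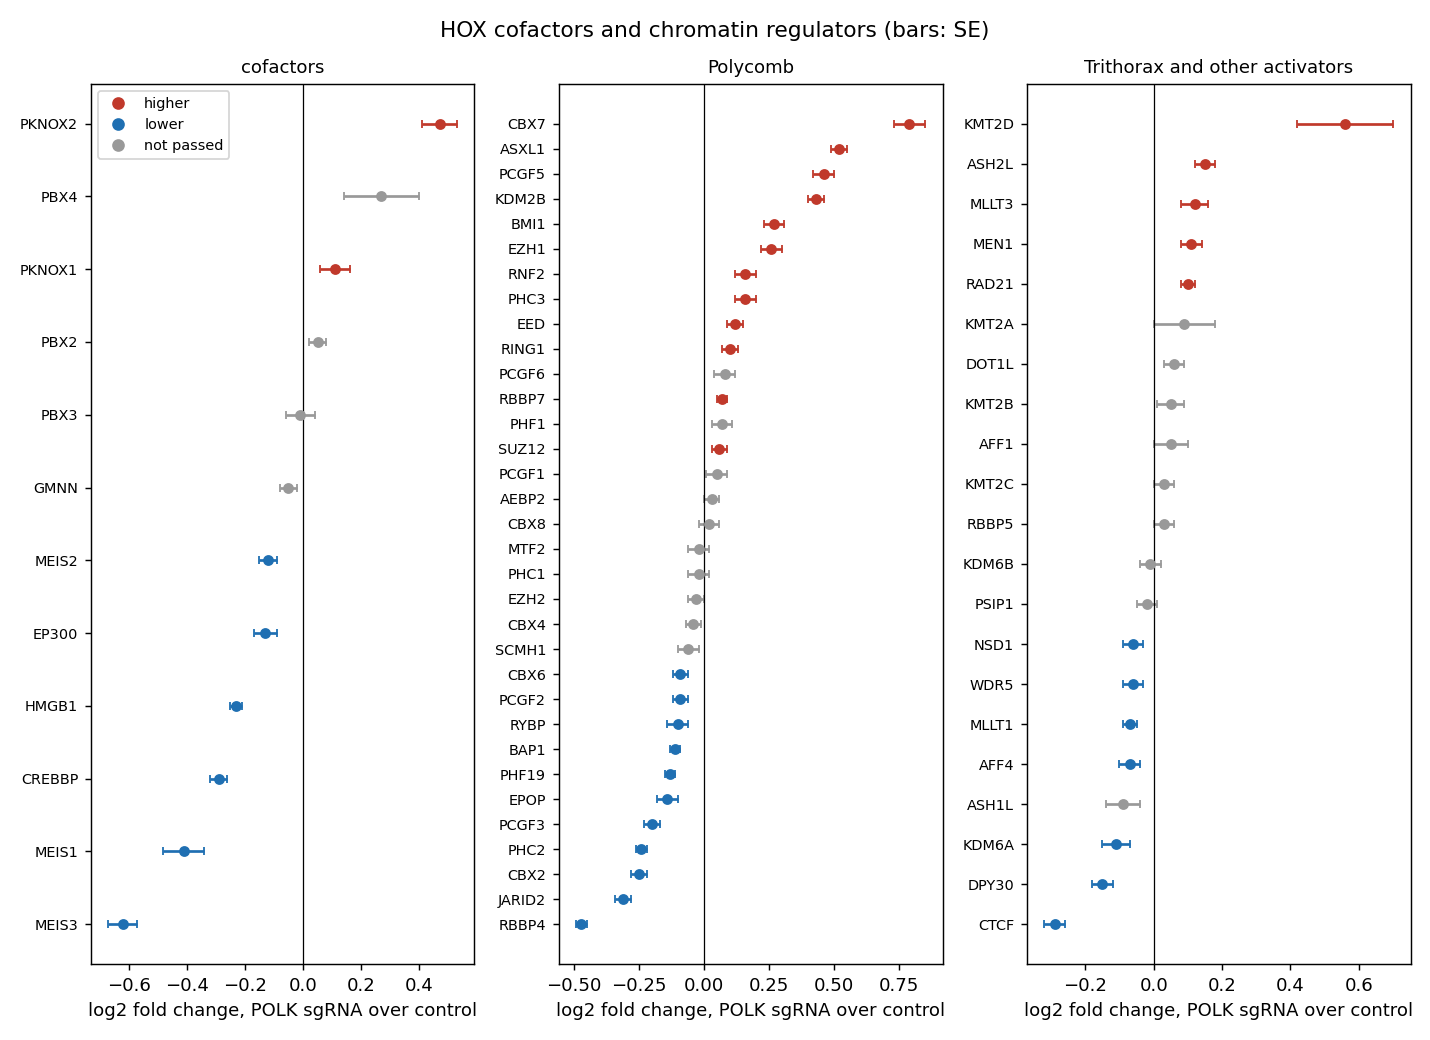
Log2 fold change of POLK sgRNA over control with SE bars for 12 of the 13 HOX cofactor genes and for the chromatin regulator genes, coloured by whether the gene was higher, lower or did not pass. MEIS3, at -0.62, and CBX7, at 0.79, lie toward the ends of the range shown.

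At a stricter threshold, testing each gene against a fold of 1.25 with edgeR's glmTreat, 20.7% of all genes tested were called. Among the HOX genes 5 were called higher, HOXA11, HOXC11, HOXC12 and HOXC13 among them, beside 11.9% of all genes tested, and none was called lower, beside 8.79% of all. The 22 HOX genes with no overlap between groups were 59.5% of those tested, beside 67.7% of all genes. Of the 22 called genes, 15 kept their call under every other setting tried and with each library left out in turn. The other 7 lost their call in at least 1 setting. HOXA4 lost it without control library 1 or 3 or POLK sgRNA library 2 or 3, with edgeR adjusted p up to 0.19. HOXB8 lost it without control library 1 or 2 or POLK sgRNA library 1 or 2 (up to 0.13), HOXB9 without control library 3 or POLK sgRNA library 1 or 2 (up to 0.12), and HOXB7 without control library 2 or POLK sgRNA library 2 or 3 (up to 0.15). HOXA3 lost its call without control library 2 (edgeR adjusted p = 0.064), HOXA10 without POLK sgRNA library 1 (0.11) and HOXC5 without POLK sgRNA library 2 (0.051). In turn HOXB5 passed without POLK sgRNA library 2 (edgeR adjusted p = 0.049) and HOXC8 without control library 2 (0.035). HOXC11, HOXC12, HOXC13 and HOXA11 kept their calls under each of these settings, glmTreat included. Of these, HOXC12 passed the main filter only through the POLK sgRNA libraries, so there its call could only be toward a higher level.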

How the data were processed

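RNA-seq libraries of the 2 groups were made with a kit that does not mark strand, and 3 libraries were sequenced per group. The authors deposited raw counts per gene, whole numbers that are not normalized. The build GRCh38 and the tools STAR, Trimmomatic, FastQC and DESeq2 are named in the submitters' processing notes. Not given in the sources used here are their versions, the counting tool and the annotation. The sgRNA in the labels set each sample's group, and column names tied the columns to samples.

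From these counts, genes were kept with filterByExpr (minimum count 10, minimum total 15) in R 4.3.3, which left 13930 genes. Groups were compared over all of them with the quasi-likelihood F test of edgeR 4.0.16 (TMM factors, robust, two-sided, no covariates, Benjamini-Hochberg threshold 0.05). The SE of a log2 fold change is its absolute value over the square root of F, and CPM use TMM-scaled library totals. At this depth the minimum count stands for 0.206 CPM. A gene is a HOX member by its symbol, and positions, exon lengths and shared exonic bases are from GENCODE 29 (GRCh38). The homeobox was located as 60 codons around a conserved motif, and promoters are from RefSeq (GRCh38.p14). Of the cofactor and chromatin lists the text names the 4 genes with the smallest p and genes with a known HOX role, and of the flanking genes the nearest. Some of the genes so chosen are not reported here. The members and lists were chosen with earlier results of these data known, and PRAC1 and PRAC2 were named for their place inside a cluster. The alternatives were DESeq2 size factors, library size alone, no filter, a mean of at least 1 CPM, limma-voom (limma 3.58.1), DESeq2 1.42.0, a block on the replicate number, each library left out, and glmTreat.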

Additional observations from a re-analysis of the deposited data

How the results depend on the processing

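The number of HOX genes called higher, 14, was 12 with DESeq2, 13 with the replicate number as a block and 12 to 15 with a library left out. The number called lower, 8, was 6 with library size alone, 7 with DESeq2, 7 with the block and 5 to 7 with a library left out, the lowest of these without control library 2. The number of genes called over the whole table, 8962, was 8080 with DESeq2, 8773 with the block and 8306 to 8682 with a library left out. The groups share replicate numbers in the labels, but same-numbered libraries did not deviate together (correlations of -0.0551, -0.0756 and -0.147 over 9432 genes), so the numbers do not pair them. With the block, 8 of the cofactor, 32 of the chromatin and 63 of the flanking genes were called, against 9, 35 and 64 without it, and HOXA4 and HOXB8 lost their calls (edgeR adjusted p = 0.067 and 0.059). With a library left out these 3 counts were 8 to 9, 29 to 35 and 59 to 62. Library size alone ended the calls of HOXB7 and HOXB9 (edgeR adjusted p = 0.064 and 0.071), and DESeq2 those of HOXA10, HOXB7 and HOXC5 (DESeq2 adjusted p = 0.063, 0.06 and 0.056).

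A test with glmTreat against a fold of 1.25, chosen after seeing the data, called 5 HOX genes higher and 0 lower, 3 cofactor genes, 5 chromatin genes, 24 flanking genes and 2877 genes in all. At an unadjusted p under 0.05, glmTreat gave 6 HOX genes higher and again 0 lower. The share of all genes at that unadjusted threshold was not computed, so these counts are not read as a result about the members. DESeq2, which tests against no change, called 7 lower at an adjusted p under 0.05, which is an unlike threshold.

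Genes near no difference, none of them called, changed sign. With a library left out, log2 fold changes ranged from -0.13 to 0.14 for HOXA2, from -0.07 to 0.08 for HOXA6, from -0.37 to 0.07 for HOXA7, from -0.15 to 0.19 for HOXD1, from -0.08 to 0.07 for HOXD8, from -0.13 to 0.03 for HOXD10, from -0.38 to 0.08 for HOXD11, from -0.26 to 0.38 for HOXD12 and from -0.05 to 0.01 for PBX3. HOXD1 was at -0.0047 with DESeq2 size factors, -0.0027 with the filter on a mean of 1 CPM and -0.0028 with limma-voom, HOXD12 at -0.06 with limma-voom, and HOXA6 and PBX3 at 0.01 and 0.0047 with library size alone. The cause was not tested. No scaling moved the median log2 fold change of all genes beyond 0.02. Counts of 3 to 9 per library for HOXD4 allow no statement on it.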
